A study of Mus musculus with 6 samples.

Results

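Heat shock proteins and their co-chaperones form a protein-folding machinery found in every cell type. The genes described here were taken from the counts table by symbol. They are the HSP70, HSP110 and HSP90 families, the small heat shock proteins (Hspb genes), the mitochondrial chaperonin (Hspd1 and Hspe1), the cytosolic chaperonin TRiC (Cct genes and Tcp1), the J-domain proteins (Dnaja, Dnajb and Dnajc genes), the BAG family and the transcription factors Hsf1 and Hsf2. Hspa5 and Dnajc27 were left out, and at least 10 counts summed over the 6 libraries were required. Of 50559 genes in the table, 82 met these conditions. Dnajb7 and Dnajb8 matched by symbol but had 5 and 1 counts in all. The expression filter before testing kept 80 of the 82 and removed Hspb9 and Hspb2.

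The study sequenced total RNA from mouse hypothalamus. The first group was wild type, with 3 libraries, and the other was SRC-1 knockout, mice in which the gene for SRC-1 is knocked out, with 3 libraries. SRC-1, encoded by Ncoa1, is a coactivator that nuclear hormone receptors recruit to their target genes. The labels used here give no strain, sex, age or treatment for either group, and they do not say whether the knockout was made in all cells. They also do not say whether each library came from a separate animal, so p-values measure the spread between these libraries, which may be technical.

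In this machinery, HSP70 proteins bind and release unfolded stretches of client proteins in a cycle driven by ATP. J-domain proteins bring clients and start ATP hydrolysis, while HSP110 and BAG proteins exchange the nucleotide and so release the client. HSP90 takes over partly folded clients, including steroid hormone receptors, and the chaperonins enclose newly made proteins in a chamber. When unfolded proteins accumulate, the factor HSF1 forms trimers and binds heat shock elements, inverted repeats of the sequence GAA, in the promoters of the inducible members. In the brain the constitutive members, such as Hspa8 and the HSP90 genes, are known to be abundant.

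Libraries held 36613507 to 46755553 counts. Ncoa1, the targeted gene, had 5180, 4630 and 5406 counts in wild-type libraries 1 to 3 and 1692, 1478 and 1766 in knockout libraries 1 to 3. All 3 knockout libraries were thus lower, as labelled, but Ncoa1 reads remained in each. The 10 hypothalamic marker genes used to check the tissue were detected in every library. Their summed level was 724 to 920.4 CPM (counts per gene scaled with TMM factors to the same library size). None was called between the groups. In 2 of the 10, Pomc and Agrp, every knockout library lay below every wild-type library, with log2 fold changes of -2.26 and -2.0. Over all genes tested, 9.03% lay so. Marker lists of other kinds held genes that were called. These were 5 of 5 tanycyte and 4 of 8 ependymal markers, all lower in knockout, and 5 of 8 oligodendrocyte markers, all higher. Also called were 3 of 6 immediate early genes, all lower, and 1 of 5 meningeal and 1 of 4 tested pituitary markers, both lower.

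Heat shock and co-chaperone genes took between 1.13% and 1.21% of all counts in each library. Their summed level was 11665, 11369 and 12285 CPM in wild type and 11479, 11254 and 12048 CPM in knockout. These ranges overlapped. Hspa8, Hsp90aa1 and Hsp90ab1 alone supplied 36.7% to 37.6% of the members' counts in each library. Levels of different genes were compared per kb of exon, and on that scale the wild-type order was headed by Hspa8, the constitutive cytosolic HSP70, at 758 ± 30.5 CPM per kb (SD, n = 3). Next came Hsp90ab1, the constitutive HSP90, at 667 ± 37.4 CPM per kb. These neighbours lay close, with an Hspa8 to Hsp90ab1 ratio of 1.14 ± 0.0259 in wild type and 1.17 ± 0.0144 in knockout, and Hspa8 was the higher in each of the 6 libraries. Hsp90aa1, the inducible HSP90, stood at 388 ± 21.4 and Hsp90b1, the HSP90 of the endoplasmic reticulum, at 198 ± 3.58 CPM per kb. At the other end stood the muscle-enriched small heat shock protein Hspb7, at 0.0757 ± 0.0178 CPM per kb.

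**Figure D1:**
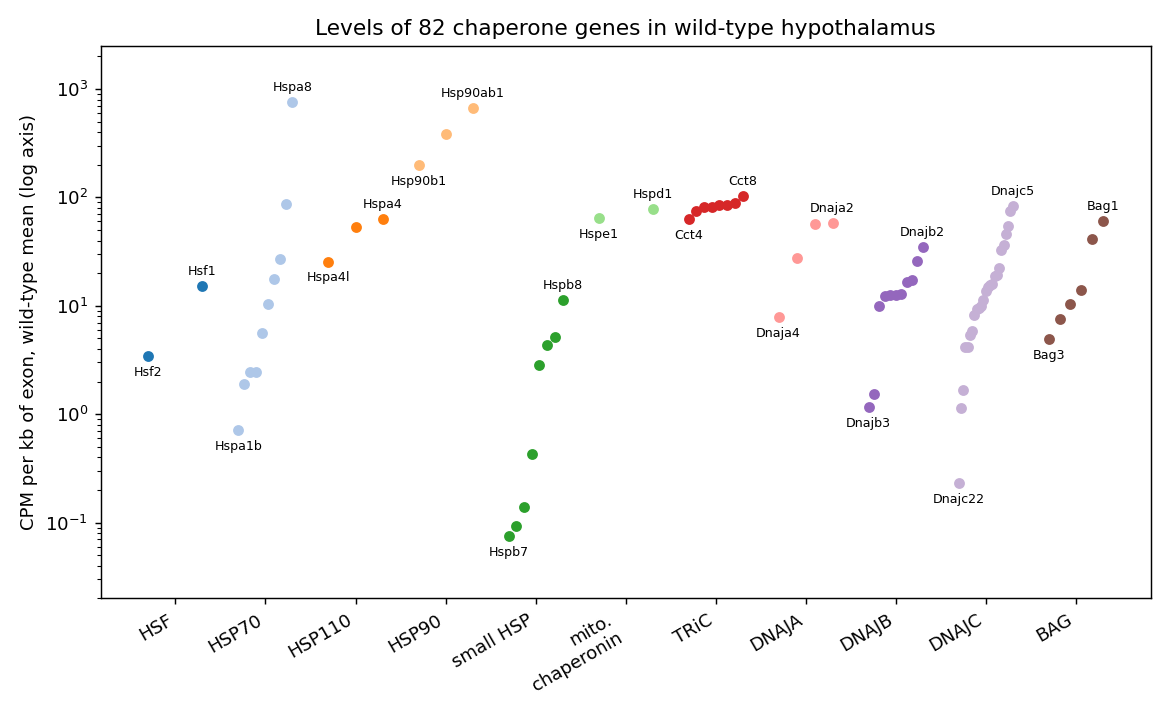
Wild-type mean level of each of the 82 genes, in CPM per kb of exon on a log axis, by family; each point is a gene and the extremes of each family are named. Hspa8 at 758 and Hsp90ab1 at 667 CPM per kb stand above every other gene, the TRiC subunits lie within a narrow band, and the HSP70 and small heat shock families spread over orders of magnitude.

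The plot of levels by family shows how unequal the families are. Within TRiC, a ring built of 8 different subunits, levels ran from 62.6 CPM per kb for Cct4 to 104 for Cct8, a 1.66-fold range. Within the HSP70 family, by contrast, the wild-type levels ran from Hspa1b at 0.712 ± 0.156 CPM per kb to Hspa8. The J-domain proteins ran from Dnajc22 at 0.233 ± 0.105 to Dnajc5, the cysteine string protein of synaptic vesicles, at 84 ± 8 CPM per kb. Dnajc6, the auxilin that uncoats clathrin vesicles with Hspa8, was also abundant at 74.3 ± 6.74 CPM per kb. Levels of Hspa8, Hspa1a, Hspa1b, Hspd1, Hspe1, Hsp90aa1, Dnajb6, Hspb1 and Dnaja1 are uncertain, because more than 20% of each transcript matched another transcript at 98% identity or more and reads that mapped to several places were not counted. In Dnajc30, Tcp1, Hspb2, Dnajc14, Bag4, Hspa12a, Dnajc17, Hspe1, Dnajc7, Dnajb12 and Bag5, more than 10% of exon bases were shared with another gene, from 11.2% in Bag5 to 65% in Dnajc30 and 32.3% in Tcp1, and reads in such stretches were not counted.

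Testing the whole table with edgeR's quasi-likelihood test, with Benjamini-Hochberg adjusted p under 0.05 as the threshold, called 2 of the 80 members lower in SRC-1 knockout, Dnajb13 and Hspa2, and 0 higher. Over all 20257 genes tested, 0.592% were called lower and 0.242% higher. At an unadjusted p under 0.05, 7 members (8.75%) were lower and 2 (2.5%) higher, against 7.21% and 5.75% of all genes. In 9 members (11.2%) every knockout library lay below every wild-type library, and in 4 (5%) every knockout library lay above, against 9.03% and 8.58% of all genes. The share of members called lower, 2.5%, rests on 2 genes and was above the background in this fit. By the looser criteria the shares of lower members were slightly above it and those of higher members below it. Among genes of at least 10 CPM, 6.06% of members did not overlap with knockout below and 6.06% with knockout above. All genes at that level had 6.23% and 10.5%, so by this criterion the share of lower members was not above the background. At an unadjusted p under 0.05 the members had 6.06% lower and 3.03% higher, against 5.16% and 7.58%. With DESeq2 the same 2 members were called lower and 0 higher, where 2.67% and 1.57% of all genes with an adjusted p were called. By DESeq2 the members' share called lower was therefore not above the background. The limma-voom fit called 1 lower, Dnajb13, and 0 higher, against 0.4% and 0.109% of all genes. With sample quality weights it called Dnajb13 and Hspa2 lower and 0 higher, against 1.31% and 0.666%.

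Most of the remaining members lay close to their wild-type level. The log2 fold change, knockout minus wild type, had a median of -0.02 over the tested members and 0.0042 over all genes tested. It was below 0 in 51 members and above 0 in 29. Its size without sign had a median of 0.0568 in the members and 0.115 over all genes. Because well-expressed genes vary less, the same was computed for genes of at least 10 CPM, giving 0.0501 in 66 members and 0.0708 in 10704 genes. Levels above that floor were not matched between members and all genes. The 95% interval of the difference lay within ±0.5 on the log2 scale for 70 of 80 members (87.5%), compared with 55.3% of all genes, and above 10 CPM for 97% of members and 89.9% of genes.

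**Figure D2:**
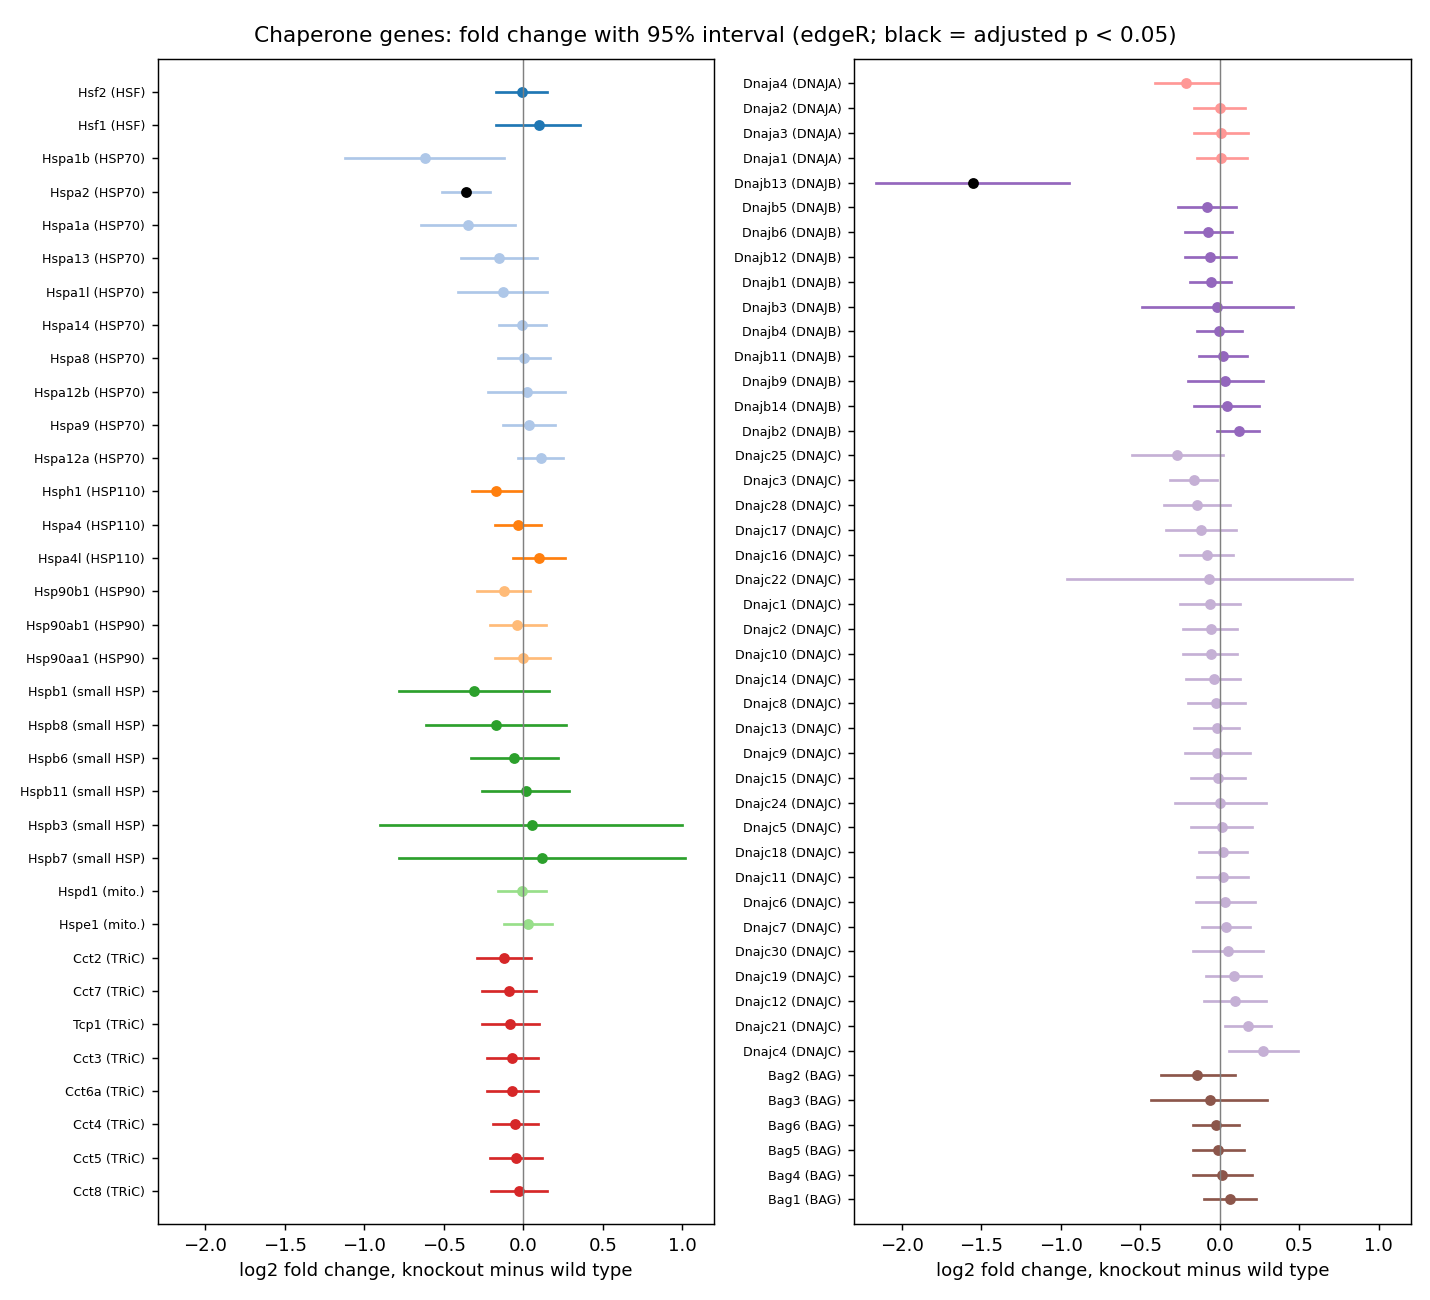
Log2 fold change of the 80 tested genes, knockout minus wild type, with 95% intervals from edgeR, grouped by family; black points passed the adjusted p threshold. Dnajb13 at -1.55 stands far to the left, Hspa2 at -0.36 is the other black point, and most other points lie within 0.1 of 0.

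In the plot of fold changes, 58 of 80 points (72.5%) lie within 0.1 of 0 on the log2 scale, where 45.4% of all genes do. Among genes of at least 10 CPM the shares were 78.8% of members and 63.5% of all genes. Wide intervals belong to genes with few reads, such as Dnajc22, Hspb3 and Hspb7.

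The transcription factors that switch the heat shock genes on were not called. Hsf1, the main factor of the heat shock response, had 41.6, 41.4 and 36.7 CPM in wild type and 45.8, 47.5 and 34.6 CPM in knockout. Knockout libraries 1 and 2 were above all wild-type libraries and knockout 3 was below them all. Hsf1 differed by 0.096 ± 0.12 on the log2 scale (SE; edgeR's quasi-likelihood test, adjusted p 0.818). Hsf2, a related factor active in development, differed by -0.0076 ± 0.073, with an interval from -0.17 to 0.15.

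Among the HSP70 genes, Hspa2 passed the threshold. Hspa2 is the HSP70 best known from sperm development and is also transcribed in other tissues. Its gene lies at chr12:76450559-76453712 on the plus strand of GRCm39, and 5.6% of its exon bases are shared with another gene. It had 31.4, 29 and 28.7 CPM in wild-type libraries 1 to 3 and 22.9, 23.4 and 23.3 CPM in knockout libraries 1 to 3. The knockout libraries lay within a narrow range below all wild-type libraries. Means were 29.7 ± 1.49 and 23.2 ± 0.295 CPM (SD, n = 3 each), and Hspa2 was 1.28-fold lower in knockout. On the log2 scale this is a fold change of -0.36 ± 0.069 (SE; 95% interval -0.51 to -0.21), for which edgeR's quasi-likelihood test gave an adjusted p of 0.0474. The call was lost when any single library was left out, with adjusted p between 0.0597 and 0.208, and with limma-voom (0.0613), library totals alone (0.0627) or a filter of 1 CPM in 3 libraries (0.0542). Direction and size held, with log2 fold changes of -0.38 to -0.32 over those 6 fits.

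The stress-inducible HSP70 genes Hspa1a and Hspa1b lay below wild type in every knockout library but did not pass the threshold. They are an almost identical pair on chromosome 17, and both are classical targets of HSF1. Hspa1a had 5.3, 5.1 and 5.51 CPM in wild type and 4.53, 3.88 and 4.08 CPM in knockout. Hspa1b had 2.4, 1.53 and 2.07 CPM in wild type and 1.14, 1.39 and 1.38 CPM in knockout, so knockout 2 and wild type 2 were close neighbours. Adjusted p-values in edgeR's quasi-likelihood test were 0.288 for Hspa1a (log2 fold change -0.35 ± 0.13) and 0.262 for Hspa1b (-0.62 ± 0.22). Because 74% of the Hspa1a and 78.5% of the Hspa1b transcript match the other gene or another copy, reads that could not be placed are missing from both. Their sum was 7.7, 6.63 and 7.58 CPM in wild type and 5.67, 5.27 and 5.46 CPM in knockout. The ratio of Hspa8 to Hspa1a, per kb, was 400.4 ± 6.99 in wild type and 514 ± 38.5 in knockout (SD, n = 3 each), without overlap. Hspa8 had a log2 fold change of 0.0051, so this ratio restates the Hspa1a values and is not a separate result. Transcripts of immediate early genes likewise appear quickly after a stimulus. They summed to 132, 161 and 123 CPM in wild type and to 84.6, 87.2 and 68.1 CPM in knockout. Of the 6 on that list 3 were called lower, 4 had groups that did not overlap, and none was at 0. Nr4a1 and Arc overlapped, with log2 fold changes of -0.25 ± 0.18 and 0.24 ± 0.16, so Arc ran the other way. In both groups, library 2 had the highest immediate early sum and the lowest sum of Hspa1a and Hspa1b. The part of the immediate early genes in the Hspa1a and Hspa1b values was not tested.

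The sequences upstream of this pair are shown because they carry the same heat shock element and because they show how little separates the genes. They are the 250 bases before the transcription start, 5′ to 3′, from the RefSeq promoter table of build GRCm38.p6, found by exact match in GRCm39 at chr17:35191133-35191382 (Hspa1a) and chr17:35178215-35178464 (Hspa1b), both on the minus strand. Capitals mark the pair of inverted GAA repeats.
Hspa1a: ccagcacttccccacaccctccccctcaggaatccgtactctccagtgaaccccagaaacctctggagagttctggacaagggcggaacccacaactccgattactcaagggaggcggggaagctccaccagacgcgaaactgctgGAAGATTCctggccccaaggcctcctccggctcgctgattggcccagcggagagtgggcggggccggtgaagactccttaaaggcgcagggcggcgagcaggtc
Hspa1b: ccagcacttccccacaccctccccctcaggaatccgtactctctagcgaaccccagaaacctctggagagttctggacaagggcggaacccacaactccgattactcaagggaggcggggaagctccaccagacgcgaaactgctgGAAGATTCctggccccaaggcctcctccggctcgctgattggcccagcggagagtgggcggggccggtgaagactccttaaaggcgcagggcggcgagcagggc
The sequences were 98.8% identical and differed at 3 of 250 positions, counted from 1 at the 5′ end with the Hspa1a base first: C44T, T47C and T249G. The marked element begins 104 bases before the start in both.

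The other HSP70 genes were not called. Hspa8 had 1563, 1555 and 1669.8 CPM in wild type and 1598, 1572 and 1634 CPM in knockout. The groups overlapped, and the log2 fold change of 0.0051 had an interval from -0.16 to 0.17. Hspa9, the mitochondrial HSP70, differed by 0.037 ± 0.075, and Hspa12a, a distant relative abundant in brain, by 0.11 ± 0.065 with groups that did not overlap.

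In the HSP110 family, nucleotide exchange factors for HSP70, Hsph1 had 364, 334 and 324 CPM in wild type and 296, 306 and 308 CPM in knockout. All knockout libraries lay below all wild-type libraries, with wild type 1 the highest. Its log2 fold change, -0.17 ± 0.07, missed the threshold of edgeR's quasi-likelihood test (adjusted p 0.348). Hspa4 (-0.036 ± 0.066) and Hspa4l (0.096 ± 0.072) overlapped between the groups.

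**Figure D3:**
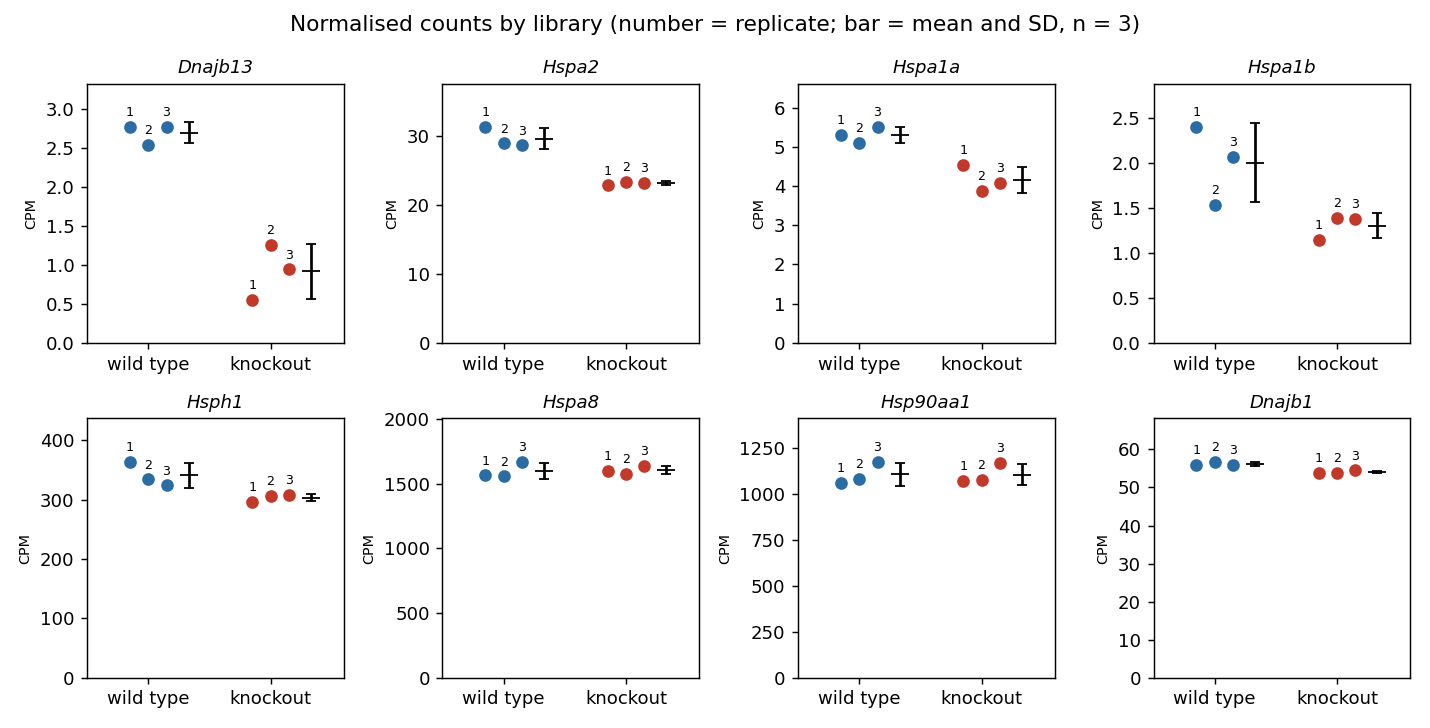
Normalised counts (CPM, linear axes from 0) of 8 genes in each library, with the replicate number at each point and the group mean with SD (n = 3). Dnajb13, Hspa2, Hspa1a, Hspa1b, Hsph1 and Dnajb1 show knockout libraries below all wild-type libraries, and Hspa8 and Hsp90aa1 show groups that overlap; only Dnajb13 and Hspa2 passed the threshold.

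The plot of counts by library sets these genes beside the abundant ones. Hsp90aa1 had 1060, 1080.1 and 1174 CPM in wild type and 1068, 1074 and 1167 CPM in knockout, and the groups overlapped almost entirely. Its log2 fold change was -0.0025 (95% interval -0.18 to 0.17). Hsp90ab1, with 1658, 1587 and 1773 CPM against 1629, 1576 and 1677, differed by -0.039 ± 0.079. Hsp90b1 had 538, 542 and 557 CPM in wild type and 469, 489.9 and 542 CPM in knockout, where only knockout 3 reached the wild-type range. It differed by -0.12 ± 0.076 (edgeR's quasi-likelihood test, adjusted p 0.564).

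All 8 TRiC subunits had a log2 fold change below 0, from -0.12 (Cct2) to -0.027 (Cct8), with a median of -0.068, and none passed the threshold. Cct2 had 182, 179 and 199.6 CPM in wild type and 166, 164 and 187 CPM in knockout. Tcp1, the subunit that gave the complex its name, had 177, 180.3 and 205 CPM in wild type and 166, 172 and 191 CPM in knockout. In both genes, knockout 3 lay above wild-type libraries 1 and 2, so the groups overlapped. The summed TRiC level was 1468, 1418 and 1599.9 CPM in wild type and 1369, 1385 and 1526 CPM in knockout. The subunits went up and down together between libraries: wild type 3 was the highest wild-type library and knockout 3 the highest knockout library in 8 of 8 subunits. The 3 HSP90 genes had the same highest libraries, in 3 of 3. So did the 2 mitochondrial chaperonin genes and the summed level of all members, so this was not particular to TRiC. Of the 25 DNAJC genes, 17 were highest in wild type 3 and 14 in knockout 3, and of the 10 HSP70 genes 4 and 5. Genes that share libraries are not independent, so 8 subunits below 0 are not 8 separate results.

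**Figure D4:**
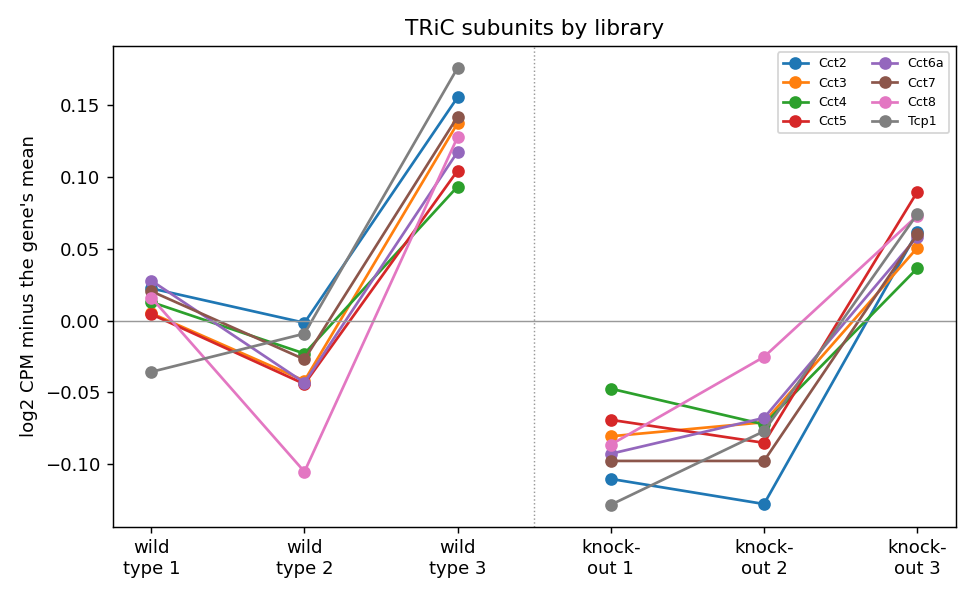
Deviation of each TRiC subunit from its own mean, in log2 CPM, in the 6 libraries; lines only join the values of the same gene, since libraries have no order. Wild type 3 and knockout 3 are the highest of their groups for all 8 subunits, and the groups overlap.

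In the plot of TRiC subunits, wild type 3 lay farther from the mean of the other wild-type libraries than the knockout mean lay from the wild-type mean in 8 of 8 subunits. The mitochondrial chaperonin, in which Hspd1 (HSP60) forms the chamber and Hspe1 (HSP10) its lid, stayed close to wild type. Hspd1 had 201, 205 and 206 CPM in wild type and 196, 196 and 216 CPM in knockout. Hspe1 had 50.4, 48.3 and 50.9 CPM against 47.7, 52.2 and 53.1. Both pairs of groups overlapped, with log2 fold changes of -0.0092 ± 0.067 and 0.031 ± 0.068. The ratio of Hspd1 to Hspe1 per kb was 1.21 ± 0.0411 in wild type and 1.18 ± 0.0574 in knockout.

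Among the J-domain proteins, Dnajb13 passed the threshold and had the largest change of all members. Dnajb13 is a J protein of the radial spokes of motile cilia, the projections that beat on ependymal cells of the ventricle wall. It lies at chr7:100152218-100182834 on the minus strand of GRCm39. It had 2.77, 2.54 and 2.77 CPM in wild-type libraries 1 to 3 and 0.548, 1.26 and 0.942 CPM in knockout libraries 1 to 3. Every knockout library was below every wild-type library, with knockout 1 the lowest. The means were 2.69 ± 0.135 and 0.917 ± 0.357 CPM (SD, n = 3 each), a 2.94-fold lower level in knockout. In edgeR's quasi-likelihood test the log2 fold change was -1.55 ± 0.27 (95% interval -2.16 to -0.95), at an adjusted p of 0.0373. The call held when knockout 2 was left out (0.0108) and was lost without any other library, with adjusted p of 0.0929, 0.0587 and 0.0584 without wild type 1, 2 and 3 and 0.107 and 0.0628 without knockout 1 and 3. It was also lost with library totals alone (0.0638) and with a filter of 1 CPM in 3 libraries (0.051). Over the fits that left out 1 library the log2 fold change lay between -1.84 and -1.29.

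The ependymal and cilia markers moved with Dnajb13. Their summed level was 68.6 to 103 CPM in wild type and 20.5 to 42.8 CPM in knockout, and the median log2 fold change of the 8 genes was -1.65. All 8 had groups that did not overlap, 4 of 8 were called lower, and none was at 0 in any library. By library the sums were 103, 72.9 and 68.6 CPM in wild type and 20.5, 42.8 and 28.5 CPM in knockout, so the knockout libraries ran in the same order as for Dnajb13 and the wild-type libraries did not. Tanycyte markers summed to 129 to 164 CPM in wild type and 55.8 to 60.5 CPM in knockout. Their part in the Dnajb13 and Hspa2 results was not tested. In bulk tissue, fewer cells of a type and less RNA per cell cannot be told apart.

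None of the other DNAJB genes was called. Dnajb1, the main J partner of the inducible HSP70, had 55.9, 56.8 and 56 CPM in wild type and 53.9, 53.8 and 54.5 CPM in knockout. These groups did not overlap, with an SD of 0.513 and 0.343 CPM, and the log2 fold change of -0.057 ± 0.059 had an interval from -0.19 to 0.074. Dnajb2, a J protein enriched in neurons, lay slightly above wild type in all knockout libraries (0.12 ± 0.062; edgeR's quasi-likelihood test, adjusted p 0.483). Dnajb6, which blocks aggregation of polyglutamine proteins, differed by -0.071 ± 0.067.

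In the DNAJA family, Dnaja4 had 53.8, 46 and 42.9 CPM in wild type and 40.9, 43.7 and 39 CPM in knockout, which overlapped, and it differed by -0.21 ± 0.09 (edgeR's quasi-likelihood test, adjusted p 0.368). Dnaja1, Dnaja2 and Dnaja3 all lay within 0.011 of 0.

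Of the 25 DNAJC genes, 14 had a log2 fold change below 0 and 11 above, and none was called. Dnajc4, a mitochondrial J protein, had 11, 11 and 11.3 CPM in wild type and 13, 15 and 12.3 CPM in knockout. Dnajc21, which takes part in ribosome maturation, had 29, 29.2 and 27.7 CPM in wild type and 33.4, 32 and 31.7 CPM in knockout. In both, every knockout library was above every wild-type library. The differences of 0.27 ± 0.098 and 0.18 ± 0.065 did not pass edgeR's quasi-likelihood test (adjusted p 0.257 and 0.273). Dnajc3, an inhibitor of the kinases that halt translation, ran the other way, with 85.3, 84.6 and 79.7 CPM against 74.9, 70 and 78.1 (-0.16 ± 0.067, adjusted p 0.332). Dnajc25 and Dnajc17 also lay below wild type in all knockout libraries (-0.27 ± 0.13 and -0.12 ± 0.1). The vesicle J proteins Dnajc5 (0.012 ± 0.085) and Dnajc6 (0.032 ± 0.084) overlapped between the groups.

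Small heat shock proteins hold unfolded proteins until HSP70 can act on them. Of 8 in the list 6 were tested, and none was called. Hspb8, which works with Bag3 in the clearance of aggregates, had 15.9, 26.9 and 18.5 CPM in wild type and 17.4, 17.4 and 19.6 CPM in knockout. Hspb1 had 3.8, 5.18 and 2.82 CPM in wild type and 3.17, 3.38 and 2.96 CPM in knockout. Wild type 2 was the highest library in both, and the knockout values fell inside the wild-type range. Hspb8 differed by -0.17 ± 0.19 and Hspb1 by -0.31 ± 0.21 on the log2 scale. Hspb6 differed by -0.057 ± 0.12. Hspb11, a small heat shock protein by name that is known as a part of the intraflagellar transport machinery of cilia, had 5.91, 5.52 and 6.35 CPM in wild type and 5.6, 6.07 and 6.31 CPM in knockout, which overlapped.

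No BAG gene was called. Bag3, the HSF1-induced partner of Hspb8, had 9.54, 15.9 and 12.8 CPM in wild type and 12.2, 12.5 and 11.9 CPM in knockout. As with Hspb8, wild type 2 was the highest library and the knockout libraries lay close together. Bag3 differed by -0.062 ± 0.16 on the log2 scale, with an interval from -0.43 to 0.3. Bag1, the most abundant of the family per kb, differed by 0.062 ± 0.074, Bag2 by -0.14 ± 0.1 and Bag6, which guards proteins with exposed membrane segments, by -0.025 ± 0.064.

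A list of 12 members was read as a heat shock set (Hspa1a, Hspa1b, Hspa8, Hsph1, Hsp90aa1, Hsp90ab1, Dnaja1, Dnajb1, Hspb1, Hspd1, Hspe1 and Bag3). It mixes heat-inducible members with Hspa8 and Hsp90ab1, named above as constitutive, so its values are not those of inducible genes alone. The 12 had 9 log2 fold changes below 0 and a median of -0.048. None of the 12 was called and in 4 of them, Hspa1a, Hspa1b, Hsph1 and Dnajb1, the groups did not overlap, all with knockout below wild type. These are 33.3% of the set, against the 9.03% of all genes given above. At an unadjusted p under 0.05 the share lower was 25%, against 7.21%. Both counts hold Hspa1a and Hspa1b, the almost identical pair. Genes that share libraries are not independent, so these are not separate results. The set was chosen with results of these data known and was not tested.

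Promoters were searched for heat shock elements in the window from 250 bases before to 50 bases after the start, in the RefSeq table. The search was for 3 inverted repeats (GAA, any 2 bases, TTC, any 2 bases and GAA, or the same beginning with TTC) and for 2 (GAA, any 2 bases and TTC, or TTC, any 2 bases and GAA). Each set reads the same on both strands, and every triplet also holds the pair. The table had 86 promoters of 66 members. It had none for Bag4, Cct4, Dnajc11, Dnajc12, Dnajc18, Dnajc2, Dnajc22, Dnajc30, Dnajc5, Hsf1, Hsp90aa1, Hsp90ab1, Hspa13, Hspa8, Hspa9 and Hspb2. The triplet was in 0.603% of all 32851 promoters and in 6 of the members' 86 (6.98%), at 4 genes: Dnajb6, Hspd1, Hspe1 and Hsph1. The pair was in 15.1% of all promoters and in 23.3% of the members', at 18 genes. Of the 9 heat-inducible members in the table, 8 had the pair and 3 the triplet. The triplet sites of Hspe1, Hsph1 and Dnajb6 are shown with their repeats in capitals, as the letters that the search found. The triplet of Hspd1 was counted but not placed, so whether it is the site shown for Hspe1 was not examined. The sites shown lie at chr1:55127212-55127241 (plus strand), chr5:149559752-149559781 (minus strand) and chr5:29940842-29940871 (plus strand) of GRCm39. The first lies upstream of Hspe1 and within the 5′ end of its divergent neighbour Hspd1. The repeats begin 89 bases before the start of Hspe1, in an exon of Hspd1. At Hsph1 they begin 36 bases after a start that the promoter table lists inside the counts table's longer gene model, in an exon of Hsph1. The last begin 46 bases before the start of Dnajb6, in an exon of the predicted gene Gm5129.
Hspe1 site: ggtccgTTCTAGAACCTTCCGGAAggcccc
Hsph1 site: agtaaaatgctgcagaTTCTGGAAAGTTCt
Dnajb6 site: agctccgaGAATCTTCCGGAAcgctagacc
The genes that hold a triplet had log2 fold changes of -0.17 (Hsph1), -0.071 (Dnajb6), -0.0092 (Hspd1) and 0.031 (Hspe1), and none was called. Neither Dnajb13 nor Hspa2 is among the genes with either motif in this window.

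Outside these families, 49 further co-chaperones and relatives were followed, of which 48 were tested. They were HSP90 co-chaperones, prefoldin, mitochondrial chaperones, HSP70 partners, alpha crystallins, relatives of HSF and others. None was called, and the median log2 fold change was 0.0065. At an unadjusted p under 0.05, 3 (6.25%) were higher and 1 (2.08%) lower, against 5.75% and 7.21% of all genes. The groups did not overlap in 6 (12.5%) with knockout above and 1 (2.08%) with knockout below, against 8.58% and 9.03%. Cryab, the alpha B crystallin of oligodendrocytes and muscle, had 52.4, 66.9 and 55.3 CPM in wild type and 85.3, 81.1 and 68.9 CPM in knockout. The groups did not overlap, and the difference of 0.43 ± 0.11 on the log2 scale did not pass edgeR's quasi-likelihood test (adjusted p 0.113). It passed with DESeq2 (0.00677) and, narrowly, with limma-voom and quality weights (0.0499). Oligodendrocyte markers summed to 3389 to 4263 CPM in wild type and 5452 to 7292 CPM in knockout, 8 of 8 did not overlap, 5 of 8 were called higher and none was at 0. Their part in the Cryab values was not tested.

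Fkbp5, an HSP90 co-chaperone that is induced by glucocorticoids and holds back the glucocorticoid receptor, had 36.4, 41.5 and 61.9 CPM in wild type and 26.2, 25.5 and 31.2 CPM in knockout. Wild type 3 was far above the rest and the groups did not overlap. A log2 fold change of -0.75 ± 0.21 came with an adjusted p of 0.214 from edgeR's quasi-likelihood test. DESeq2 did call Fkbp5, at an adjusted p of 0.000491. The glucocorticoid target list, which includes Fkbp5, summed to 239 to 506 CPM in wild type and 205 to 255 CPM in knockout, with 0 of 6 called. Hsf5 (0.79 ± 0.33) and Hsf4 (0.23 ± 0.1), the next in order of p, had adjusted p-values of 0.346 and 0.377 by the same test. The HSP90 co-chaperones as a group had 13 of 20 log2 fold changes below 0 and a median of -0.023, and prefoldin, which hands clients to TRiC, had 2 of 6 below 0 and a median of 0.013.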

How the data were processed

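RNA was extracted on RNeasy columns and made into Illumina TruSeq libraries, per the labels' protocols; neither label nor header says whether poly(A) RNA was selected or strand kept. Each deposited value is a raw count of read pairs per gene, without normalization. Alignment used STAR 2.7.10a and counting featureCounts 2.0.3, per the submitters' processing notes, while the file header names featureCounts 2.0.0. Exons of the RefSeq annotation of mm39 (GRCm39) were grouped by gene, per the file headers. No strand, multi-mapping or multi-overlap option was set, so reads shared by genes or copies were not counted and antisense genes cannot be told apart. Columns were matched to samples by library code, with 0 rows lacking a gene name and 0 unused columns. Libraries of the same group differed by more than sampling noise (chi-square per degree of freedom 8.87 to 18.9). Pairs across the groups gave 15 to 37, which overlaps that range. Same-numbered libraries 1 to 3 gave 37, 15 and 15.7.

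Computed here: in R 4.3.3, edgeR 4.0.16 with the default filter by group (minimum count 10), TMM scaling, robust dispersion, quasi-likelihood tests and Benjamini-Hochberg adjustment over all 20257 genes tested. To obtain a standard error, the log2 fold change was divided by √F, and 95% intervals use the test's degrees of freedom. The common biological coefficient of variation was 12.3%. The script was tested on simulated data. With 3 against 3, exact permutation p-values cannot go below 0.1, so none were made. Levels between genes use the table's exon length. Copies were sought with blastn 2.17.0 (98% identity over 100 bases). Alternatives were RLE size factors, library totals alone, no filter, 1 CPM in 3 libraries, each library left out, a replicate block, DESeq2 1.42.0, limma-voom (limma 3.58.1) with and without quality weights, and an adjusted p under 0.1. A fit without both first replicates was added after seeing the data.

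Named genes were a panel of chaperones, members past the threshold, the 3 lowest p and the level extremes of each family, and the 4 non-members of lowest p. Dnajc6, Dnajc17, Dnajc25, Hspa9, Hspa12a, Hspb3, Hspb11 and Serpinh1 were named after their values were seen. The members and lists were chosen with earlier results of these data known.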

Additional observations from a re-analysis of the deposited data

How the results depend on the processing

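The members called lower numbered 2 in the reported fit. They numbered 0 with library totals alone, 0 with a filter of 1 CPM in 3 libraries, 1 with limma-voom (Dnajb13), 0 to 1 with each library left out, and 0 without both first replicates, a fit chosen after seeing the data (adjusted p 0.256 for Dnajb13, log2 fold change -1.27, and 0.524 for Hspa2). With the replicate number as a block the count was 0, with adjusted p of 0.0593 for Dnajb13 and 0.0642 for Hspa2. Same-numbered libraries deviated together with correlations of -0.206, 0.351 and 0.224, and the 0.351 of libraries 2 was the largest of any pair across the groups. Wild type 1 correlated best with knockout 2 (0.138) and wild type 3 with knockout 1 (0.255). The labels tie the numbers to no shared animal or batch, so the libraries were not treated as pairs. The count stayed at 2 with RLE size factors, no filter, DESeq2, quality weights and an adjusted p under 0.1. Members called higher were 0 under every alternative run. The non-member co-chaperones called, 0 in the reported fit, were 1 with the replicate block (Fkbp5), 2 with DESeq2 (Cryab and Fkbp5), 1 with quality weights (Cryab) and 0 to 1 with each library left out (Serpinh1 without wild type 3). The cause of these shifts was not tested. The members' median log2 fold change ran from -0.059 without knockout 3 to 0.00086 without wild type 3. Over all genes, 169 were called in the reported fit, 810 with DESeq2, 401 with quality weights, 103 with limma-voom, 66 with library totals alone, 84 with the 1 CPM filter, 280 with no filter, 36 to 260 with each library left out and 29 without both first replicates. For named genes, 592 of 671 values under alternatives kept direction and side of the threshold, 20 lost the threshold, 4 passed it, and 55 changed sign with neither value past it (16 genes).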

Other observations

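Wild type 2 had the highest wild-type level of Hspb8, Hspb1 and Bag3, but the lowest of the inducible Hspa1a (5.1 CPM) and Hspa1b (1.53 CPM). Hspb8 was at 26.9 CPM against 15.9 and 18.5, Hspb1 at 5.18 against 3.8 and 2.82, and Bag3 was at 15.9 against 9.54 and 12.8. Meningeal fibroblast markers summed to 67.1, 112 and 39.7 CPM in wild-type libraries 1 to 3 and to 29.2, 25.6 and 29.1 CPM in knockout libraries, with wild type 2 again the highest, 1 of 5 called lower and none at 0. Wild type 1 was above wild type 3 in this sum and in Hspb1, but below it in Hspb8 and Bag3. Other marker sums were also highest in wild type 2 among wild-type libraries 1 to 3. These were oligodendrocyte (3389, 4263 and 4165 CPM), endothelial and mural (109, 116 and 76) and immediate early markers (132, 161 and 123). Without wild type 2 the log2 fold change of Bag3 was 0.13 and that of Hspb8 0.077, against -0.062 and -0.17 with it, and none of these values passed the threshold. The part of any of these marker lists in the Hspb8, Hspb1 and Bag3 values was not tested.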
